A study of Rattus norvegicus with 10 samples.

Results

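The genes described here are the 9 ligands, receptors and Smads of transforming growth factor β (TGF-β) signalling named Tgfb1, Tgfb2, Tgfb3, Tgfbr1, Tgfbr2, Tgfbr3, Smad2, Smad3 and Smad7. They were found by gene symbol among the 32545 genes of a table of read counts from the CA1 region of hippocampal slices of adult male Wistar rats aged 5 to 7 weeks. Each of the 9 had a row that passed the filter on low counts, which 15032 genes passed. Tgfbr1 had a second row with between 1 and 3 counts per library, which did not pass and was not tested.

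RNA came from the microdissected CA1 region of acute slices that were given 30 min of basal stimulation and collected 1 h after treatment, and each of the 5 groups had 2 libraries. The SKF group received the compound SKF, an agonist of the dopamine D1 and D5 receptors, and no amyloid. The SKF+Aβ group also received oligomers of Aβ(1–42), the amyloid peptide of Alzheimer's disease, at 200 nM. The SKF+Aβ+CSP group had in addition 0.36 µg/ml of empty carbon nanospheres (CSP), and the SKF+Aβ+CSP-TTK21 group had the same dose of nanospheres that carried TTK21, a small-molecule activator of the lysine acetyltransferases CBP and p300. The CSP-TTK21 alone group had the loaded nanospheres with neither SKF nor Aβ, so that against SKF it differed in more than 1 agent. Each library pooled slices from 2 animals. The sources do not say whether libraries with the same number shared animals, and p-values measure the spread between these libraries only.

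TGF-β ligands are secreted as latent complexes and, once freed, bind a type II receptor (Tgfbr2) that phosphorylates a type I receptor (Tgfbr1), while Tgfbr3 (betaglycan) presents the ligand. The type I receptor phosphorylates Smad2 and Smad3, which enter the nucleus with Smad4 and act on target genes together with coactivators that include CBP and p300. Smad7 is induced by the pathway and inhibits it, and in brain the ligand Tgfb1 is known mostly as a microglial product, with Tgfb2 and Tgfb3 made more by neurons and astrocytes.

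The upstream sequences of Tgfb1 and Smad3 are shown because CBP and p300, the targets of TTK21, are recruited by the factor CREB at cAMP response elements, and these were the members in which a half-site of that element was found. The sequences are the 250 bases before the RefSeq start in the rat build GRCr8, written in the direction of the gene, with the half-site in capitals. Tgfb1 lies at chr1:90324062-90324311 on the plus strand and Smad3 at chr8:73132325-73132574 on the minus strand.
Tgfb1: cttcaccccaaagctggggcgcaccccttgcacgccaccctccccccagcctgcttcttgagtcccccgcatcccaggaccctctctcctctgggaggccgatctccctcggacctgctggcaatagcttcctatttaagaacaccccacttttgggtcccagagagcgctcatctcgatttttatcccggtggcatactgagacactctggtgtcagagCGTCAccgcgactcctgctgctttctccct
Smad3: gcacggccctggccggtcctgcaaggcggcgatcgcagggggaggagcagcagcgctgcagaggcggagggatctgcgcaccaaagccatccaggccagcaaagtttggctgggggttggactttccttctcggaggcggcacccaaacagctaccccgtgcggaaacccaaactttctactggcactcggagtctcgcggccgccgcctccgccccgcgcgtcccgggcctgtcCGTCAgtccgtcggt
The half-site (TGACG, or CGTCA on the other strand) began 30 bases before the start of Tgfb1 and 15 bases before that of Smad3. Over 10 windows of the 9 genes (Smad2 had 2) these were the 2 that held it, and 18.2% of all 33469 rat windows of this length held it too. The full element TGACGTCA was in 0 of the 10 windows and in 1.59% of all windows. The Smad box CAGAC (or GTCTG) was in 0 of 10 and in 42.9% of all, and the AP-1 motif TGANTCA was in 0 of 10 and in 6.34% of all. A match of letters is a description and shows no binding.

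Total counts were between 6753742 and 8473407 per library, so that 3 counts equalled 0.354 to 0.444 counts per 1000000 (CPM). Mitochondrial genes took between 3.58% and 7.71% of the counts, the lowest share being in SKF library 1. Replicates differed beyond counting noise in every group (chi-square per degree of freedom 4.73 to 12.1). Neuronal, astrocyte and oligodendrocyte markers were detected in every library, but the CA1 marker Fibcd1 and the endothelial marker Cldn5 had 0 counts in every library.

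Tgfb1 (ENSRNOG00000020652) was lower in slices given SKF and Aβ than in slices given SKF, and it was the 1 gene of the 9 that passed the test in any comparison. Its normalized CPM was 21.8 and 27.0 in the SKF libraries and 9.64 and 11.2 in the SKF+Aβ libraries. With empty nanospheres added it was 16.9 and 11.6. The values were 16.0 and 23.8 with SKF+Aβ+CSP-TTK21 and 19.0 and 20.1 with CSP-TTK21 alone. The SKF+Aβ libraries were the lowest of all 10, and SKF library 2 was the highest, with between 69 and 202 reads behind these values. The SKF+Aβ libraries did not overlap with those of any other group, whereas both groups given loaded nanospheres lay between SKF+Aβ and the higher SKF library. From low to high, the group means were ordered SKF+Aβ, SKF+Aβ+CSP, CSP-TTK21 alone, SKF+Aβ+CSP-TTK21 and SKF.

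**Figure D1:**
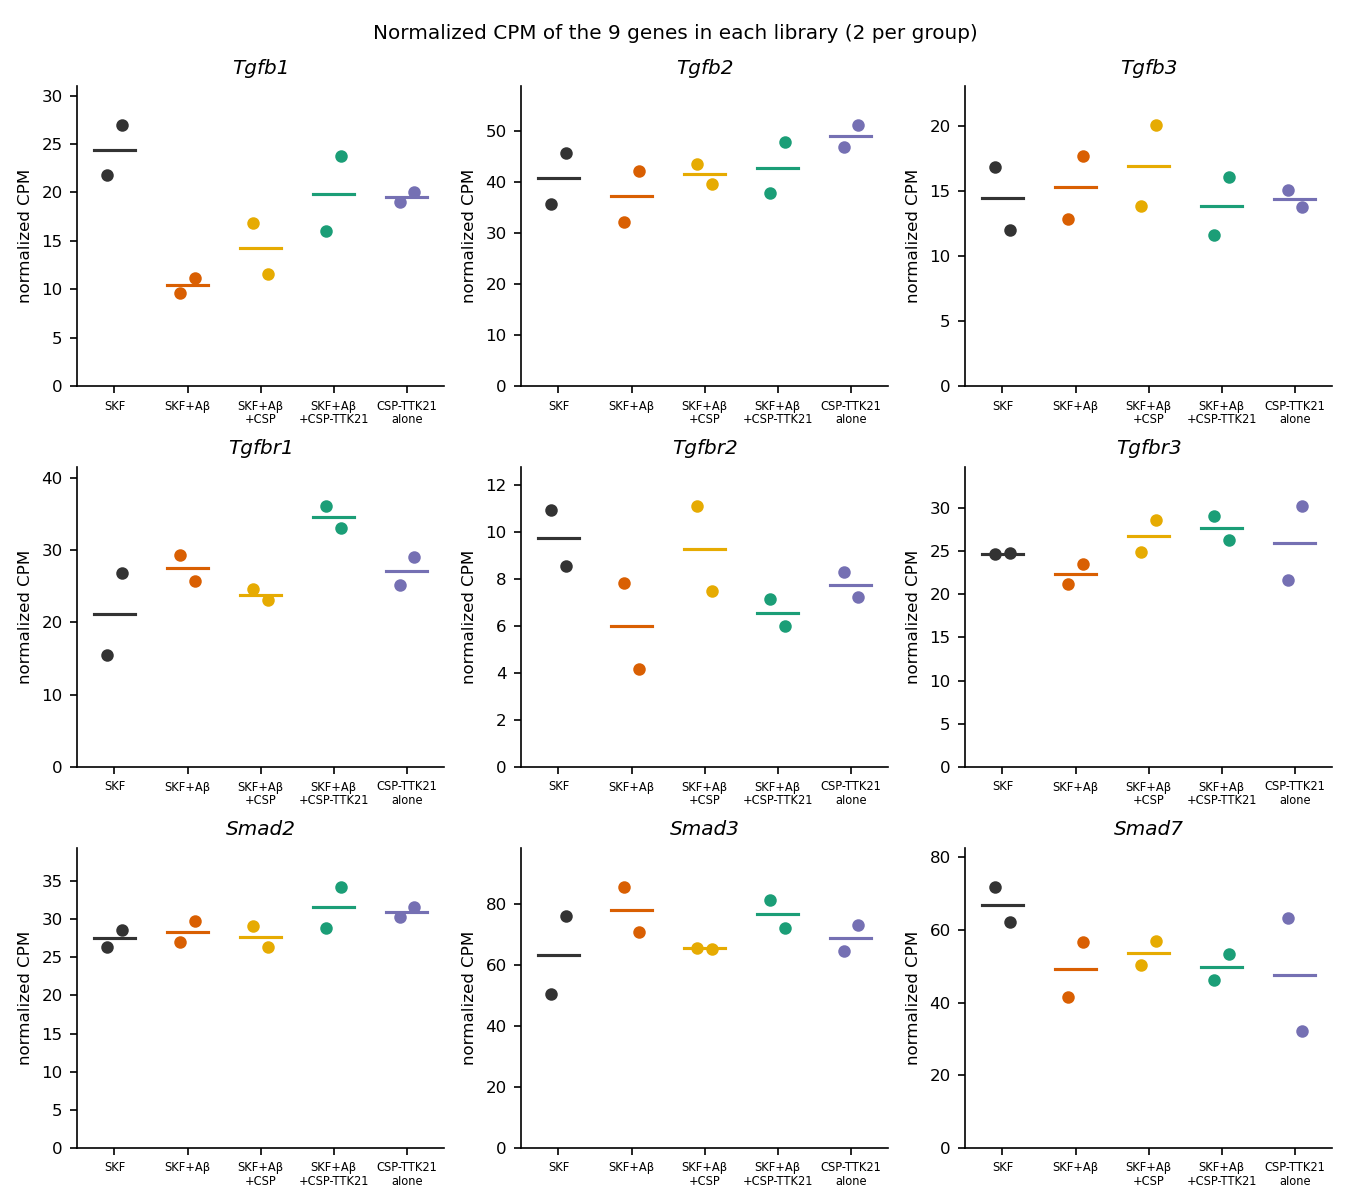
Normalized CPM (linear axis from 0) of the 9 genes, with 1 point per library, 2 libraries per group and a bar at the group mean. Tgfb1 was 9.64 and 11.2 CPM in the SKF+Aβ libraries, below the other 8 libraries, and no other gene passed the test in any comparison.

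Against SKF, Tgfb1 fell by 1.23 on the log2 scale in SKF+Aβ (SE 0.24, 95% interval from -1.75 to -0.71, edgeR quasi-likelihood adjusted p = 0.0359), or to 0.426 times the SKF level. That comparison called 2.08% of all tested genes at an adjusted p under 0.05, and 1 of the 9 genes. The call was lost, with log2 values from -1.39 to -1.07 and edgeR adjusted p between 0.0511 and 0.153, when any 1 library of the SKF, SKF+Aβ or SKF+Aβ+CSP groups was left out, and those fits called 0.00644% to 1.11% of all tested genes. It was also lost when only the 4 libraries compared were fitted (edgeR adjusted p = 0.0670, 0.0833% of all tested genes called), and the value is within the study's limit of 1.5 on the log2 scale. In this comparison the libraries of the groups did not overlap for 4 of the 9 genes, and for 49.6% of all tested genes. The study itself described the opposite direction, with increased TGF-β1 signalling in SKF+Aβ in its RNA sequencing. By quantitative PCR it gave TGFβ as up-regulated against SKF, both with Aβ and with Aβ and CSP. It also described lower TGF-β1 mRNA with CSP-TTK21. Why the directions differ was not tested.

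The addition of empty or loaded nanospheres to SKF+Aβ was the comparison of the particle and of its cargo. Tgfb1 had a log2 difference of 0.46 (SE 0.25, 95% interval from -0.07 to 1.00) in SKF+Aβ+CSP against SKF+Aβ, which ran from 0.16 without SKF+Aβ+CSP library 1 to 0.70 without library 2. Beside it, 11 of 13 microglial markers (median -0.15) and 7 of 7 astrocyte markers (median -0.06) were negative, and 6 of 6 oligodendrocyte markers (median 0.39) and 5 of 5 endothelial markers (median 0.39) were positive. In SKF+Aβ+CSP-TTK21 against SKF+Aβ the difference was 0.93 (SE 0.24, 95% interval from 0.40 to 1.46), with an unadjusted p of 0.00206 in edgeR and an adjusted p of 0.746, and it was 0.61 without SKF+Aβ+CSP-TTK21 library 2. Here 12 of 13 microglial markers were positive (median log2 difference 0.47, 2 at an unadjusted p under 0.05 in edgeR), with sums of 229 and 307 CPM in SKF+Aβ and 292 and 409 CPM in SKF+Aβ+CSP-TTK21. The same comparison had 7 of 7 astrocyte markers positive (median 0.31) and 6 of 6 oligodendrocyte markers positive (median 0.54, 5 at an unadjusted p under 0.05 in edgeR). Of all tested genes, 6.59% had such a p there. Endothelial markers were negative in 5 of 5 (median -0.59) and meningeal fibroblast markers in 4 of 4 (median -0.33). The part of these cells in the Tgfb1 difference was not tested. The cargo itself, SKF+Aβ+CSP-TTK21 against SKF+Aβ+CSP, gave 0.47 (SE 0.24, 95% interval from -0.04 to 0.98, edgeR adjusted p = 0.570), and the libraries of these groups overlapped. It was 0.15 without SKF+Aβ+CSP-TTK21 library 2, 0.23 without SKF+Aβ+CSP library 2, and 0.73 and 0.77 without library 1 of either group. In this comparison 12 of 13 microglial markers (median 0.59, 3 at an unadjusted p under 0.05 in edgeR), 7 of 7 astrocyte markers (median 0.42, 2 at an unadjusted p under 0.05) and 6 of 6 oligodendrocyte markers (median 0.14) were positive. So were 4 of 4 tested genes of the CA1 neuron list (median 0.29). Endothelial markers were negative in 5 of 5 (median -1.04, 5 at an unadjusted p under 0.05 in edgeR), where 8.78% of all tested genes had such a p. These 3 comparisons called 0% of all tested genes at an adjusted p under 0.05, so that 0 of the 9 passed in each. Only without the filter on low counts did Tgfb1 pass in SKF+Aβ+CSP-TTK21 against SKF+Aβ (log2 difference 0.94, edgeR adjusted p = 0.0184), where that fit called 0.507% of 25251 genes.

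Against SKF, the other groups gave Tgfb1 differences of -0.77 with SKF+Aβ+CSP (SE 0.23, edgeR adjusted p = 0.115), -0.30 with SKF+Aβ+CSP-TTK21 (SE 0.23, adjusted p = 0.488) and -0.32 with CSP-TTK21 alone (SE 0.23, adjusted p = 0.717). Beside the first, 12 of 13 microglial markers were negative (median -0.59, 3 at an unadjusted p under 0.05 in edgeR, as for 19.3% of all tested genes). Endothelial markers were positive in 5 of 5 (median 0.23). Microglial markers were negative in 7 of 13 beside the second and 5 of 13 beside the third. The part of these cells was not tested. The value with SKF+Aβ+CSP-TTK21 ran from -0.63 without its library 2 to -0.03 without its library 1, and that with CSP-TTK21 alone from -0.47 without SKF library 1 to -0.16 without SKF library 2. The test of any difference among the 5 groups had an unadjusted p of 0.00189 for Tgfb1 and an adjusted p of 0.196 in edgeR, and DESeq2 called Tgfb1 in it (adjusted p = 0.0153) among 2.57% of all tested genes. Over all tested genes, edgeR called 0.00665% in the 5-group test, 0.02% in SKF+Aβ+CSP against SKF, 0.00665% in SKF+Aβ+CSP-TTK21 against SKF and 0% in CSP-TTK21 alone against SKF, and 0 of the 9 genes in each. Apart from Tgfb1 in SKF+Aβ against SKF and the 5-group DESeq2 call, neither DESeq2 nor limma called a member in any of these tests. In bulk tissue, fewer cells of a type and less RNA per cell cannot be told apart.

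The other ligands did not pass in any comparison. Tgfb2 (ENSRNOG00000002418) was at 35.8 and 45.7 CPM in SKF, 32.3 and 42.2 with Aβ added, 43.6 and 39.7 with Aβ and empty nanospheres, 37.8 and 47.9 with Aβ and loaded nanospheres, and 47.0 and 51.2 for CSP-TTK21 alone. The CSP-TTK21 alone libraries were both above both SKF libraries. Between these groups 36.1% of all tested genes did not overlap, whether higher or lower. The log2 difference of Tgfb2 was 0.27 (SE 0.18, edgeR adjusted p = 0.704), and it was 0.10 without SKF library 1 and 0.46 without SKF library 2. In SKF+Aβ against SKF, Tgfb2 had a log2 difference of -0.13 (SE 0.18), whose 95% interval from -0.53 to 0.26 does not reach the value of Tgfb1, and the difference between the genes was not tested.

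Tgfb3 (ENSRNOG00000009867) was at 16.9 and 12.02 CPM in SKF, 12.9 and 17.7 with Aβ added, 13.8 and 20.1 with Aβ and empty nanospheres, 11.6 and 16.1 with Aβ and loaded nanospheres, and 15.1 and 13.8 for CSP-TTK21 alone. All of its groups overlapped with each other, and in SKF+Aβ against SKF its log2 difference was 0.08 (SE 0.26, 95% interval from -0.48 to 0.64). The order of its group means was therefore not separable from the spread within groups.

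Among the receptors, the type I receptor Tgfbr1 (ENSRNOG00000007036) was highest in the group given Aβ with loaded nanospheres. It was at 36.0 and 33.1 CPM there, against 15.5 and 26.8 in SKF, 29.3 and 25.6 with Aβ added, 24.6 and 23.0 with Aβ and empty nanospheres, and 25.2 and 29.0 for CSP-TTK21 alone. Both SKF+Aβ+CSP-TTK21 libraries lay above the other 8 (against SKF, 50.5% of all tested genes did not overlap), and SKF library 1 was the lowest of all 10. The log2 difference was 0.71 against SKF (SE 0.22, 95% interval from 0.24 to 1.17, edgeR adjusted p = 0.133) and 0.54 against SKF+Aβ+CSP (SE 0.21, edgeR adjusted p = 0.556), and neither passed. Without SKF library 2 the first became 1.16 and passed (edgeR adjusted p = 0.0264) in a fit that called 2.14% of all tested genes, and without SKF library 1 it was 0.35. In SKF+Aβ against SKF it was 0.38 (SE 0.22, 95% interval from -0.10 to 0.85), with 0.02 without SKF library 1 and 0.83 without SKF library 2.

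The type II receptor Tgfbr2 (ENSRNOG00000013265) rested on between 28 and 94 reads per library, the fewest of the 9 genes. It was at 10.9 and 8.54 CPM in SKF, 7.82 and 4.17 with Aβ added, 11.1 and 7.48 with Aβ and empty nanospheres, 7.16 and 5.99 with Aβ and loaded nanospheres, and 8.30 and 7.22 for CSP-TTK21 alone. Both SKF+Aβ libraries were below both SKF libraries, with a log2 difference of -0.69 (SE 0.32, 95% interval from -1.37 to -0.01), an unadjusted p of 0.0480 and an adjusted p of 0.214 in edgeR. The value ran from -1.23 without SKF+Aβ library 1 to -0.33 without SKF+Aβ library 2. Library 2 was the lower in each of the 5 groups, and a fit blocked by replicate number gave an unadjusted p of 0.0154 and an adjusted p of 0.118 in edgeR. SKF+Aβ+CSP-TTK21 against SKF was of a like size, -0.56 (SE 0.31, edgeR adjusted p = 0.336), and also missed the threshold. SKF+Aβ+CSP, however, overlapped with SKF and was 0.63 above SKF+Aβ (SE 0.32, edgeR adjusted p = 0.9997). That difference ran from 0.26 to 1.16 with 1 library left out.

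The co-receptor Tgfbr3 (ENSRNOG00000002093) varied little, from 21.2 CPM in SKF+Aβ library 1 to 30.2 CPM in library 2 of CSP-TTK21 alone. It was at 24.6 and 24.8 CPM in SKF and 21.2 and 23.5 CPM in SKF+Aβ, a log2 difference of -0.14 (SE 0.18, 95% interval from -0.54 to 0.25) that was -0.09 without SKF+Aβ library 1 and -0.24 without library 2. Both groups with nanospheres and Aβ had higher libraries than SKF+Aβ, at 24.9 and 28.6 CPM with CSP and 29.0 and 26.2 CPM with CSP-TTK21, and 27.2% and 35.9% of all tested genes did not overlap in these comparisons. The log2 differences from SKF+Aβ were 0.26 (SE 0.18) and 0.30 (SE 0.18), with edgeR adjusted p of 0.9997 and 0.762, and the first was 0.16 without SKF+Aβ+CSP library 2.

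Of the Smads that carry the signal, Smad2 (ENSRNOG00000018140) had the narrowest range of the 9 genes. It ran from 26.4 to 34.2 CPM over the 10 libraries, a ratio of 1.30, with 26.4 and 28.6 CPM in SKF and 27.0 and 29.8 CPM in SKF+Aβ. The log2 difference between these groups was 0.05 (SE 0.16, 95% interval from -0.29 to 0.38), which leaves out a change of the size seen for Tgfb1.

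Smad3 (ENSRNOG00000008620) was at 50.3 and 76.1 CPM in SKF, 85.5 and 70.6 with Aβ added, 65.6 and 65.2 with Aβ and empty nanospheres, 81.2 and 72.0 with Aβ and loaded nanospheres, and 64.6 and 73.1 for CSP-TTK21 alone. SKF library 1 stood below the other 9 libraries, and SKF overlapped with every other group. The log2 difference of SKF+Aβ from SKF was 0.30 (SE 0.18, 95% interval from -0.09 to 0.70, edgeR adjusted p = 0.334), and without SKF library 1 it was 0.02, without SKF library 2 0.63. Of the SKF+Aβ libraries, the lowest for Tgfb1, library 1 had more Smad3 than both SKF libraries and library 2 lay between them.

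The inhibitory Smad7 (ENSRNOG00000018359) had its highest mean in SKF, at 71.7 and 62.1 CPM. Its values were 41.6 and 56.8 CPM with Aβ added, 50.4 and 56.9 with Aβ and empty nanospheres, 46.3 and 53.5 with Aβ and loaded nanospheres, and 63.2 and 32.2 for CSP-TTK21 alone. The 3 groups with Aβ did not overlap with SKF, nor did 49.6% to 52.4% of all tested genes in these comparisons, and CSP-TTK21 alone held the lowest library of all. The log2 differences from SKF were -0.44, -0.32, -0.42 and -0.49 in that order (SE 0.25 in each), with edgeR adjusted p of 0.301, 0.509, 0.355 and 0.652. The last was -1.07 without library 1 of CSP-TTK21 alone and -0.08 without its library 2, and the first -0.25 and -0.70 without SKF+Aβ libraries 1 and 2. These comparisons share the SKF libraries, so that the values are not independent of each other.

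**Figure D2:**
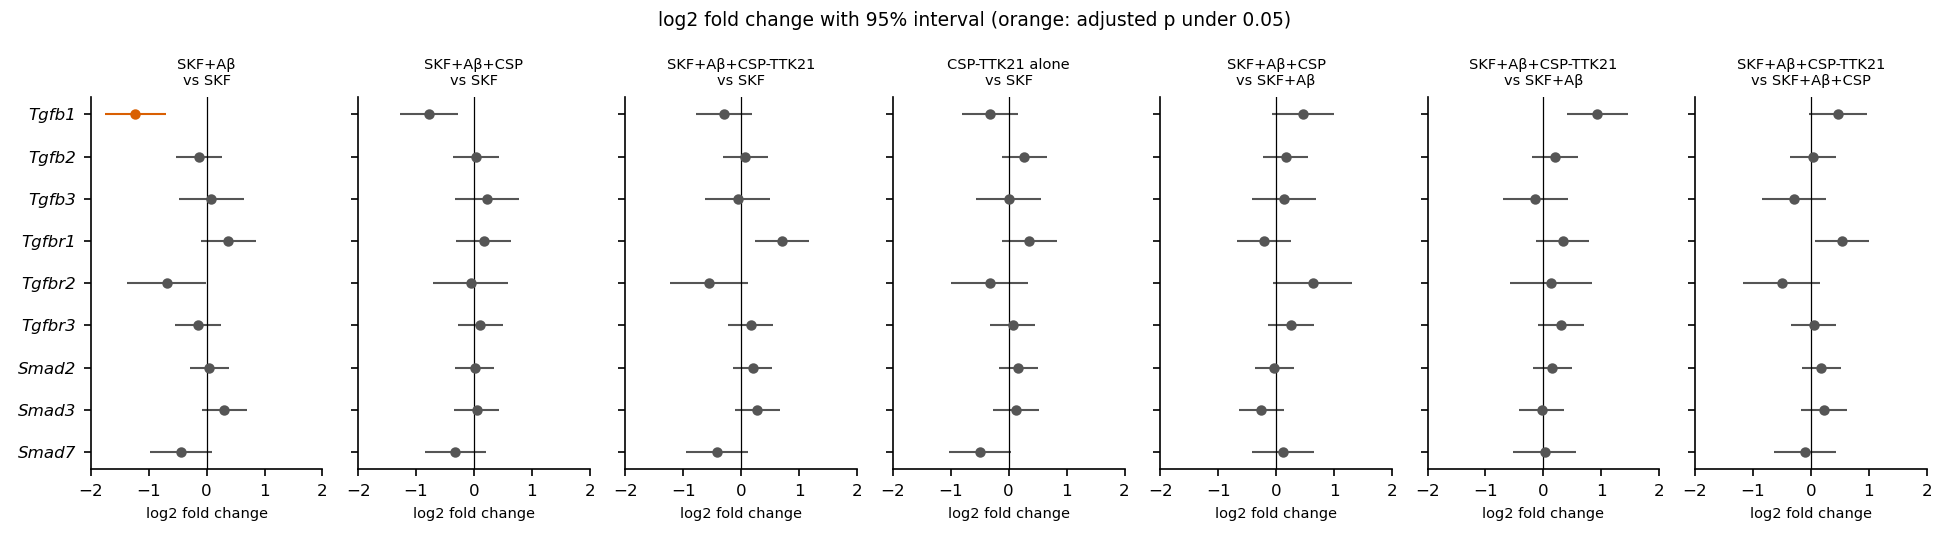
Log2 fold change of each gene (points) with its 95% interval from edgeR (lines) in 7 comparisons, 1 panel each. The orange point, Tgfb1 in SKF+Aβ against SKF at -1.23, is the 1 value with an adjusted p under 0.05.

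At an unadjusted p under 0.05, edgeR gave 1 of the 9 genes in the 5-group test, beside 14.3% of all tested genes. The counts were 2 of 9 in SKF+Aβ against SKF (22.8% of all), 1 of 9 in SKF+Aβ+CSP against SKF (19.3%), 1 of 9 in SKF+Aβ+CSP-TTK21 against SKF (19.6%) and 0 of 9 in CSP-TTK21 alone against SKF (7.78%). Between groups with Aβ they were 0 of 9 in SKF+Aβ+CSP against SKF+Aβ (2.18%), 1 of 9 in SKF+Aβ+CSP-TTK21 against SKF+Aβ (6.59%) and 1 of 9 in SKF+Aβ+CSP-TTK21 against SKF+Aβ+CSP (8.78%). These counts lay near the shares over all genes. The median log2 difference of the 9 genes in SKF+Aβ against SKF was -0.13, with 5 negative and 4 positive, and the median over all tested genes was -0.001.

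Whether the other genes followed Tgfb1 was measured as the correlation of log2 CPM over the 10 libraries. Tgfb2 had the highest Pearson r, 0.587 (permutation p = 0.0772, 0.600 after Benjamini-Hochberg adjustment over the 8 genes), with a Spearman rho of 0.576 (permutation p = 0.0900, adjusted 0.720). Smad2 followed with 0.435, Tgfbr2 with 0.349, Smad7 with 0.247 and Tgfbr3 with 0.223. Tgfbr1 had -0.0750, Tgfb3 -0.260 and Smad3 -0.295. The adjusted permutation p of Pearson's r was at least 0.600 for each of the 8, so that 0 of 8 passed, and 0 passed by Spearman's rho. With 1 library left out, r ran from 0.357 (without SKF+Aβ library 1) to 0.775 (without SKF library 1) for Tgfb2 and from 0.0691 (without SKF+Aβ library 2) to 0.510 (without SKF+Aβ+CSP-TTK21 library 2) for Tgfbr2. For Smad7 it ran from 0.0667 (without SKF+Aβ library 1) to 0.565 (without library 2 of CSP-TTK21 alone), for Smad2 from 0.281 (without SKF+Aβ+CSP-TTK21 library 2) to 0.626 (without SKF library 1), for Tgfb3 from -0.525 (without SKF+Aβ library 1) to -0.0395 (without SKF+Aβ+CSP library 2) and for Smad3 from -0.460 (without SKF library 2) to -0.0303 (without SKF+Aβ library 1).

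Both libraries farthest from the median of Tgfb1 were those of SKF+Aβ. Without them r was 0.387 for Tgfb2, 0.441 for Smad2, 0.0262 for Tgfbr2, 0.150 for Smad7 and -0.424 for Tgfb3, and the sign changed for Tgfbr3 (-0.370), Tgfbr1 (0.0200) and Smad3 (0.0316). Of the 12810 genes with a mean of at least 20 counts, 17.0% had a higher r with Tgfb1 than Tgfb2 had. The median r of the 8 genes was 0.235 and that of all 12810 genes 0.0145. The points fall into 5 treatment groups of 2 and share library depth and cell make-up with every other gene. With only 5 libraries per replicate number, r within a number is not given. With the replicate number as a block, r was 0.618 for Tgfb2 and 0.536 for Tgfbr2, ran from -0.331 to 0.419 for the others, and 0 of 8 passed (lowest adjusted permutation p 0.510).

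**Figure D3:**
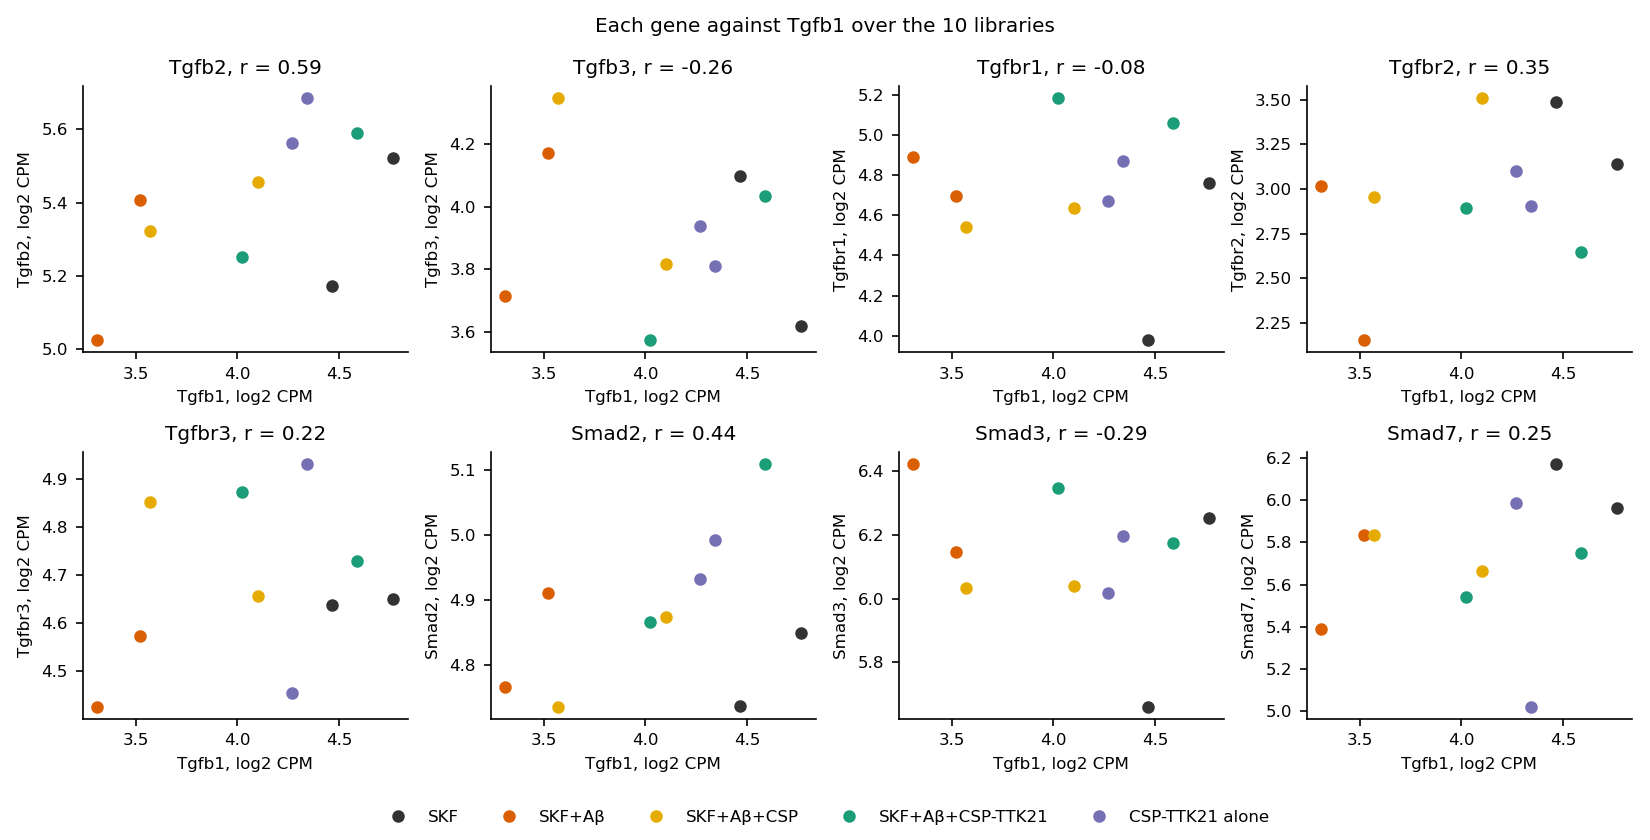
Log2 CPM of each of the other 8 genes against log2 CPM of Tgfb1, with 1 point per library coloured by group and Pearson's r in each title. The SKF+Aβ libraries lie at the left of every panel, and r runs from -0.29 for Smad3 to 0.59 for Tgfb2.

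The genes most like Tgfb1 over the 10 libraries were Gls2, a glutaminase (r = 0.966), the orphan receptor Gprc5b (0.961), Tmcc2 (0.960), Tmem150b (0.958) and a row named 7SK (ENSRNOG00000058555, 0.957), a small nuclear RNA with many copies whose reads are uncertain. Gls2 was at 27.5 and 28.8 CPM in SKF and 18.4 and 21.3 CPM in SKF+Aβ, a smaller span than that of Tgfb1. The most opposite were the ubiquitin ligase Uhrf2 (-0.982), the SET-domain gene Setd5 (-0.970), Nedd4l (-0.962), Dock4 (-0.962) and a row named SNORD115 (ENSRNOG00000051787, -0.960), also a repeated small RNA. Nedd4l, a ubiquitin ligase for activated Smad2 and Smad3, was at 197 and 189 CPM in SKF and 236 and 218 CPM in SKF+Aβ. These 10 were picked as the extremes of 12810 correlations over 10 points and carry no test, and the lowest size of r they had under the alternatives was 0.891, the Spearman rho of 7SK.

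**Figure D4:**
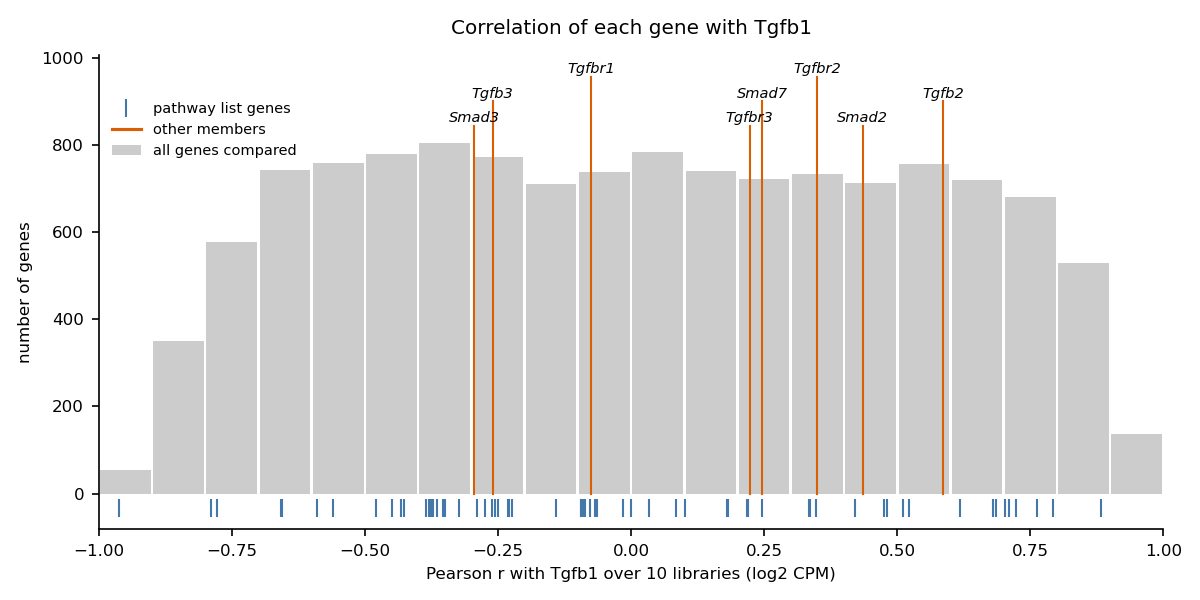
Number of genes (bars) by Pearson r with Tgfb1 over the 10 libraries in steps of 0.1, for 12810 genes with a mean of at least 20 counts. Orange lines mark the other 8 genes, which lie between -0.295 and 0.587, and blue ticks mark the 63 genes of the pathway lists, which run from -0.962 to 0.883.

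The rest of the pathway was taken as 65 genes in 6 lists, of which 63 were tested, while Smad6 and Smad9 were too low. In edgeR 0 of 63 passed in the 5-group test and in each of the 7 comparisons. At an unadjusted p under 0.05 the edgeR share was 17.5% in the 5-group test, 23.8% in SKF+Aβ against SKF (15 of 63), 12.7% in SKF+Aβ+CSP against SKF, 25.4% in SKF+Aβ+CSP-TTK21 against SKF (16 of 63) and 14.3% in CSP-TTK21 alone against SKF. Between the groups with Aβ it was 4.76% for SKF+Aβ+CSP against SKF+Aβ, 3.17% for SKF+Aβ+CSP-TTK21 against SKF+Aβ and 11.1% for SKF+Aβ+CSP-TTK21 against SKF+Aβ+CSP. These shares lay on both sides of those of all tested genes given above, below them in SKF+Aβ+CSP against SKF and in SKF+Aβ+CSP-TTK21 against SKF+Aβ. The median r of the 63 genes with Tgfb1 was -0.0876, and 25 of 63 were above 0, beside 50.9% of all 12810 genes. DESeq2 called 2 of 63, Acvr2a and Usp15, in SKF+Aβ against SKF, where it called 5.44% of all tested genes, and limma called 0 in every test.

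Among the 12 genes that hold or free latent ligand, 8 had negative and 4 positive log2 differences in SKF+Aβ against SKF, with a median of -0.29. Ltbp1, which tethers the latent complex to matrix, was at 8.02 and 4.81 CPM in SKF and 5.03 and 1.94 CPM in SKF+Aβ (log2 difference -0.87, SE 0.52, edgeR adjusted p = 0.337), which was -1.73 without SKF+Aβ library 1 and -0.37 without library 2. The integrin subunit Itgb6, which takes part in activating latent TGF-β, was at 0.691 and 0.534 against 0.978 and 1.94 CPM (log2 difference 1.22, SE 0.81, edgeR adjusted p = 0.386), on 3 to 17 reads per library, and 0.64 without SKF+Aβ library 2.

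The other receptors and co-receptors had a median log2 difference of 0.07, with 6 of 11 positive. Eng, the endothelial co-receptor endoglin, was at 30.3 and 10.9 CPM in SKF and 15.5 and 10.3 CPM in SKF+Aβ (log2 difference -0.67, SE 0.42, edgeR adjusted p = 0.355), and without SKF library 1 the sign turned (0.22). The activin receptor Acvr2a was at 29.9 and 33.5 against 42.2 and 53.5 CPM, without overlap (log2 difference 0.59, SE 0.17, edgeR adjusted p = 0.0722), and the difference was 0.39 without SKF+Aβ library 2. Among the other ligands, 6 of 8 were negative and the median was -0.26. Bmp6, a bone morphogenetic protein, was at 8.71 and 5.61 against 3.91 and 5.22 CPM (log2 difference -0.65, SE 0.31, edgeR adjusted p = 0.234), and -0.32 without SKF library 1. Mstn, which encodes myostatin, was at 1.11 and 1.87 against 2.79 and 5.51 CPM (log2 difference 1.46, SE 0.51, edgeR adjusted p = 0.117), on 5 to 38 reads per library, and 0.88 without SKF+Aβ library 2.

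The 3 other Smads tested had a median log2 difference of -0.02. Smad4, the common partner of Smad2 and Smad3, was at 67.9 and 75.2 CPM in SKF and 66.5 and 72.4 CPM in SKF+Aβ (log2 difference -0.04, SE 0.13), and Smad5, which serves the bone morphogenetic proteins, was at 29.6 and 36.3 against 42.6 and 35.0 CPM (0.24, SE 0.16). The Smad5 value was 0.08 without SKF library 1, 0.07 without SKF+Aβ library 1 and 0.39 without SKF library 2. Of the 12 Smad regulators, 8 were positive and the median was 0.19. The corepressor Ski was at 145 and 117 against 95.5 and 88.2 CPM (log2 difference -0.51, SE 0.17, edgeR adjusted p = 0.103). Without the filter on low counts, in a fit that called 5.19% of 25251 genes, Ski (edgeR adjusted p = 0.0232), Mstn (0.0346) and Eng (0.0496) passed. Usp15, a deubiquitinase that acts on the type I receptor and Smads, was at 86.1 and 77.7 against 119 and 117 CPM (log2 difference 0.52, SE 0.13, edgeR adjusted p = 0.0570).

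Of the 17 target genes, 10 were negative and 7 positive, with a median of -0.16 and 6 at an unadjusted p under 0.05 in edgeR, beside 22.8% of all tested genes. Ccn2, a matricellular protein gene induced by TGF-β, was at 7.60 and 2.67 CPM in SKF and 2.10 and 1.49 CPM in SKF+Aβ, on 10 to 55 reads per library (log2 difference -1.50, SE 0.51, edgeR adjusted p = 0.111). It did not pass here, but did in the fit without the filter on low counts (log2 difference -1.53, edgeR adjusted p = 0.00867). SKF library 1 was the highest of the 10, and the value was -0.58 without it, while without SKF library 2 it was -2.07 and passed (edgeR adjusted p = 0.0496) in a fit that called 1.11% of all tested genes. Snai1, a transcription factor gene, was at 1.94 and 2.0 against 4.33 and 1.04 CPM (log2 difference 0.46, SE 0.60), and the sign turned without SKF+Aβ library 1 (-0.92). Id3, an inhibitor of helix-loop-helix factors, had the highest r with Tgfb1 of the 63 genes (0.883) and was named after its value was seen. It was at 14.1 and 13.2 CPM in SKF and 6.43 and 8.79 CPM in SKF+Aβ (log2 difference -0.85, SE 0.24, edgeR adjusted p = 0.0745), and did not pass. Without the filter on low counts it was among the 9 pathway genes called, in a fit that called 5.19% of 25251 genes.

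**Figure D5:**
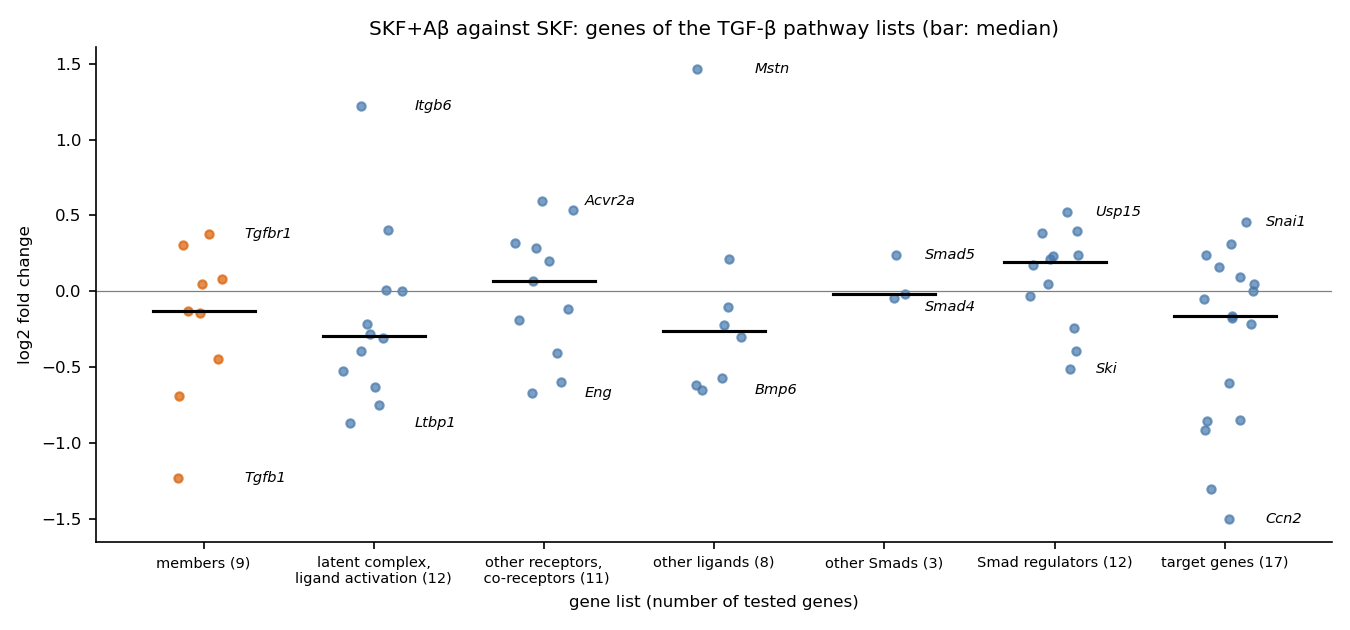
Log2 fold change in SKF+Aβ against SKF of the 9 genes (orange) and of the tested genes of 6 pathway lists (blue), with 1 point per gene, a bar at each median and the lowest and highest gene of each list named. The points of each blue list lie on both sides of 0, and 0 of 63 passed.

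Markers of the cell types that express TGF-β genes were summed beside these values. The 13 microglial markers summed to 235 and 389 CPM in SKF and 229 and 307 CPM in SKF+Aβ, which overlap, and over all libraries to between 229 and 409 CPM. Among them 11 of 13 were negative in SKF+Aβ against SKF with a median log2 difference of -0.27, and in edgeR 0 of 13 passed. An unadjusted p under 0.05 was found for 3 of the 13 and for 22.8% of all tested genes. The oligodendrocyte markers were lower in SKF+Aβ, at 15528 and 10918 CPM against 16211 and 23950 in SKF, with 6 of 6 negative, a median of -0.65, 4 at an unadjusted p under 0.05 in edgeR and 0 passing. Endothelial markers summed to 202 and 98.4 CPM in SKF, 142 and 104 with Aβ added, 203 and 150 with Aβ and empty nanospheres and 85.0 and 80.0 with Aβ and loaded nanospheres, with Cldn5 at 0. In SKF+Aβ+CSP-TTK21 against SKF+Aβ+CSP 5 of 5 tested endothelial markers were negative with an unadjusted p under 0.05 in edgeR (median log2 difference -1.04), and against SKF 4 of 5 were negative (median -0.80, 3 at an unadjusted p under 0.05 in edgeR). The shares of all tested genes at such a p were 8.78% and 19.6%. Meningeal fibroblast markers summed to 14.5 and 18.3 CPM in SKF and 21.9 and 34.4 CPM in SKF+Aβ, with Col1a2 at 0. Mural cell markers summed to 108 and 111 CPM in SKF and 97.2 and 94.9 CPM in SKF+Aβ, and astrocyte markers to 4168 and 5663 against 4615 and 4541 CPM. The list for CA1 pyramidal neurons summed to 3314 and 3985 against 3125 and 3247 CPM. Most of that sum came from Slc17a7 and Camk2a, genes of excitatory neurons in general. Markers of dentate granule cells summed to 197 and 239 against 300.3 and 227 CPM. Among these, Prox1 was at 142 to 248 CPM over the libraries, and the subfield make-up of the tissue was not tested. No marker gene of these 8 lists passed in edgeR in any comparison. Their part in the lower Tgfb1 of the SKF+Aβ libraries, and in the values of other genes, was not tested.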

How the data were processed

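The authors deposited whole-number read counts per rat Ensembl gene, without normalization, for 10 libraries. According to the study's methods, RNA libraries were stranded and depleted of ribosomal RNA, and reads were aligned with TopHat2. The submitters' processing notes name STAR, RSEM, HISAT2 and Salmon. The methods name Cufflinks, a rat genome and, for the alignment, a mouse genome, and the notes name a human build. These sources conflict, and none says which program, annotation or strand setting made the deposited counts, so Tgfb2, Tgfbr3 and Smad2, which overlap annotated non-coding genes or a pseudogene in RefSeq, and Tgfbr1, which has 2 rows, are uncertain. No transcript lengths were used, so levels are compared within a gene only.

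The test was the quasi-likelihood F-test of edgeR 4.0.16 (R 4.3.3), with filterByExpr by group, TMM factors and 1 model over all 10 libraries that held a coefficient for each group. P-values were Benjamini-Hochberg adjusted over 15032 genes, and genes passed at an adjusted p under 0.05. The biological coefficient of variation was 0.136. Normalized CPM are counts per 1000000 of the TMM-scaled total of the genes tested. Correlations used log2 CPM with a prior count of 2 and two-sided permutation tests with 100000 resamples. Alternatives were the replicate number as a block, DESeq2 1.42.0, limma 3.58.1 on log2 CPM, RLE factors, other filters, a fit of 4 libraries and each library left out.

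The correlation of deviations between libraries of the same replicate number was over 0.1 for 4 of 10 pairs of groups (-0.0691 to 0.237), so the number was not treated as a pairing. Whether such libraries shared animals is not given in the sources used here. In simulated counts for SKF+Aβ against SKF with 200 changed genes, 197 of 14869 were called and 189 of these were truly changed, with 88 of 99 found at a log2 change of 1. That simulation gave every gene the same coefficient of variation, 0.136, and changed only genes above a minimum mean count. It added no differences in cell make-up, so these shares do not measure recovery in the real libraries. The members and gene lists were chosen with earlier results of these data known. Named genes were all 9 members, the genes of each list with the highest and lowest log2 fold change in SKF+Aβ against SKF, and the 5 genes with the highest and the 5 with the lowest r with Tgfb1. Id3 was added after its value was seen, as were other pathway genes that an alternative called. Outside SKF+Aβ against SKF, single values of the members are given only where they exceeded 1 standard error, a choice made after the data were seen. The untreated group was not analysed here.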

Additional observations from a re-analysis of the deposited data

How the results depend on the processing

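Tgfb1 in SKF+Aβ against SKF kept its direction under every alternative run. It stayed past the threshold with DESeq2, limma, RLE factors, both other filters and the replicate block (-1.23, edgeR adjusted p = 0.0283). With only the 4 libraries compared it was -1.22 and 0 of 9 passed, and 0 passed with a log2 limit of 1.5. Leaving out 1 library gave -1.39 to -1.07 and 0 to 1 passing, with the call lost for each SKF, SKF+Aβ and SKF+Aβ+CSP library. In the 5-group test DESeq2 and the unfiltered fit each called 1 member, Tgfb1. Without the filter 1 member also passed in SKF+Aβ+CSP against SKF (Tgfb1), and 1 when the loaded group was compared with SKF (Tgfbr1) or with SKF+Aβ (Tgfb1). Leaving out 1 library gave 0 to 1 in SKF+Aβ+CSP-TTK21 against SKF (Tgfbr1, without SKF library 2, where 2.14% of all genes passed). The cause was not tested.

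Alternatives for the pathway genes, and for the genes most like Tgfb1, were chosen after seeing the data. Without the filter 10 passed in the 5-group test (5.55% of all 25251 genes did), 9 with Aβ (5.19%), 2 with Aβ and CSP (2.99%), 11 with Aβ and CSP-TTK21 (3.57%), and 4 for CSP-TTK21 alone (0.622%), each against SKF, and 1, 1 and 6 in the comparisons of CSP and CSP-TTK21 with SKF+Aβ and of CSP-TTK21 with CSP (0.261%, 0.507% and 1.22%). DESeq2 called 1 in the 5-group test (Fn1; 2.57% of all genes), 2 with Aβ (5.44%), 1 with Aβ and CSP (Trim33; 3.03%) and 1 with Aβ and CSP-TTK21 (Fn1; 2.20%), each against SKF, and 1 with CSP-TTK21 against CSP (Fn1; 0.140%). A minimum of 10 counts gave 1 in SKF+Aβ against SKF (Usp15; 3.36% of all genes), the replicate block 2 in SKF+Aβ+CSP-TTK21 against SKF (Lrrc32 and Eng), and the 4-library fit 2 with CSP-TTK21 against CSP (Eng and Fn1; 0.346%), where 5 of 5 endothelial markers were negative. The block raised the calls over all genes from 1 to 108 (0.718%) in that comparison with SKF and from 1 to 15 in the 5-group test. Leaving out 1 library gave 0 to 2 in SKF+Aβ against SKF, 0 to 4 in SKF+Aβ+CSP-TTK21 against SKF and 0 to 1 with CSP-TTK21 against CSP, with the highest of each without SKF library 2 (1.11%, 2.14% and 0.0384% of all genes). The block changed no other call of a member or pathway gene.

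Signs changed when 1 library was left out for Tgfb2 (-0.355 to 0.0549), Tgfb3 (-0.19 to 0.33), Smad2 (-0.0465 to 0.104), Smad4 (-0.131 to 0.0331), Eng (-1.23 to 0.22) and Snai1 (-0.92 to 1.11) in SKF+Aβ against SKF, and for Smad3 (-0.00553 to 0.610) in SKF+Aβ+CSP-TTK21 against SKF. They also changed for r with Tgfb1 of Tgfbr1 (-0.229 to 0.240) and Tgfbr3 (-0.0989 to 0.414), and without the 2 SKF+Aβ libraries for Tgfbr1 (0.0200), Tgfbr3 (-0.370) and Smad3 (0.0316). Of 26 member values within 1 standard error that are not given singly, 22 changed sign under some alternative and 0 passed. With 2 libraries per group and Tgfbr2, Mstn, Itgb6, Ccn2 and Snai1 on few reads, intervals were wide.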
